A study of Bos taurus with 48 samples.

Results

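The galectin genes LGALS1, LGALS3, LGALS4, LGALS8, LGALS9 and LGALS12, together with LGALS3BP, which encodes the galectin-3 binding protein, were followed in the endometrium of 22 lactating Holstein-Friesian dairy cows of mixed New Zealand and North American ancestry. These are the 7 member genes among 14562 genes named on the array, and a probe was taken as a member when its gene name or the symbol in its description was one of these 7. They were measured by 8 of 21475 probes, 1 for each gene except LGALS8, which had 2. All 8 probes passed the filter on dim signals and were tested with 14717 probes in all.

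Estrus was synchronized in every animal and all were slaughtered on day 17 of the cycle. A group of 12 pregnant cows had received a grade 1 blastocyst on day 7, and 10 cyclic cows had received none. Caruncular endometrium, the raised aglandular sites where the placenta later attaches, and intercaruncular endometrium, the gland-bearing tissue between them, were sampled from each cow, which gave 44 samples. Of the pregnant cows, 7 carried a large embryo (over 20 cm and over 75 mg) and 5 a small one (under 20 cm and under 40 mg), and 6 were labelled fertile and 6 sub-fertile. The labels give no further definition of sub-fertile. Each sample, in Cy5, was set against 1 pool of all 44 samples, in Cy3, and a value is the log2 ratio to that pool. No dye was swapped and array medians were subtracted, so for a given probe 0 need not be the level of the pool. Every LGALS12 value, for instance, lay above 0, with the lowest at 0.15. Values are therefore read as differences between groups. Samples were bulk tissue, in which a loss of cells of a type and less RNA per cell cannot be told apart.

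Galectins are lectins that bind beta-galactoside sugars on glycoproteins and glycolipids. They have no signal peptide, leave the cell by an unconventional route, and at the surface they link glycoproteins into lattices that affect adhesion, signalling and the survival of lymphocytes. Galectin-1 carries a single carbohydrate-binding domain, galectin-3 joins such a domain to a tail through which it oligomerizes, and galectins 4, 8, 9 and 12 are tandem-repeat forms with a pair of domains on 1 chain. The galectin-3 binding protein is not a lectin but a secreted glycoprotein that galectins bind. In the uterus galectins are known for roles in immune tolerance and in attachment of the conceptus.

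Probe sequences are shown for the genes that changed with pregnancy and for which a sequence was at hand, since the probe sets which part of the transcript was measured. They are written 5′ to 3′ in lower case, whole for LGALS9 and for LGALS8 probe A_73_114176 (60 bases) and for the leading 30 bases of the other pair.
LGALS9, probe A_73_101066: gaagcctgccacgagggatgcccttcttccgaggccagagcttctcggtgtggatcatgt
LGALS8, probe A_73_114176: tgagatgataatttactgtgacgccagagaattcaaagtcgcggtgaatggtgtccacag
LGALS8, probe A_73_120174: aagacagcttcacttattccataccttact
LGALS3BP, probe A_73_109296: gtcccttgtctgagatcattaaaattgcac
The LGALS9 probe was the richest in G and C (60.0%), against 45.0% and 40.0% for the LGALS8 probes and 43.3% for LGALS3BP. The 60-base LGALS8 probes had no run of more than 6 bases in common, so their sequences differ. Neither was placed on the LGALS8 transcript, and both were read from the same RNA on the same arrays.

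Scanner signal was similar throughout, with 68.8 to 84.0% of spots well above background on the 48 arrays, and 7 of the 8 member probes were present in all 44 samples. The exception was the LGALS8 probe A_73_120174, which was present in 26. The arrays lay on 12 slides, most of which held samples of 1 state and 1 tissue. Here and in fits with a slide term, slides are counted by the first array of each sample. The 4 repeat arrays of caruncular tissue are left out of this count. By it, only 1 slide within each tissue held both states, with 3 pregnant cows and 1 cyclic cow. Only 1 pregnant cow (slide 10) and 1 cyclic cow (slide 11) had their tissues side by side on 1 slide. Values from these slides are given beside the results that they touch. Of 6 stromal markers 2 were called higher in caruncular tissue of cyclic cows and 5 in that of pregnant cows. Of 2 tested gland markers 1, FOXA2, was called lower there in both states. Between the tissues 11.9% of all probes were called in cyclic and 17.0% in pregnant cows.

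Pregnancy was first compared in caruncular tissue. A change was called at 1.5-fold or more with a Benjamini-Hochberg adjusted p under 0.05 in limma, and 4 of the 8 member probes, of LGALS9, LGALS3BP and LGALS8 (both probes), passed, all of them higher in pregnant animals. Among all probes tested 10% passed, 5.78% as higher and 4.23% as lower. The median change of the member probes was 0.35 (log2), beside -0.04 over all probes. Pregnant and cyclic groups did not overlap for 2 of the 8, LGALS9 and LGALS3BP, and this held for 1.90% of all probes.

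In intercaruncular tissue 4 of the 8 passed, with LGALS9, LGALS3BP and 1 LGALS8 probe higher and LGALS12 lower in pregnant animals. The LGALS8 probe was A_73_120174, whose signal in this tissue of cyclic cows was at most 64.7 units, under the 80 units of the filter. It met the filter through the other groups alone, so its call is not independent of the filter and adds no support. Here 7.28% of all probes passed, 4.01% as higher and 3.27% as lower, and the median change was 0.30 for the members and -0.01 for all probes. LGALS9 and LGALS3BP were again the probes without overlap, against 1.15% of all probes. In both tissues, LGALS1, LGALS3 and LGALS4 did not reach the threshold.

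**Figure D1:**
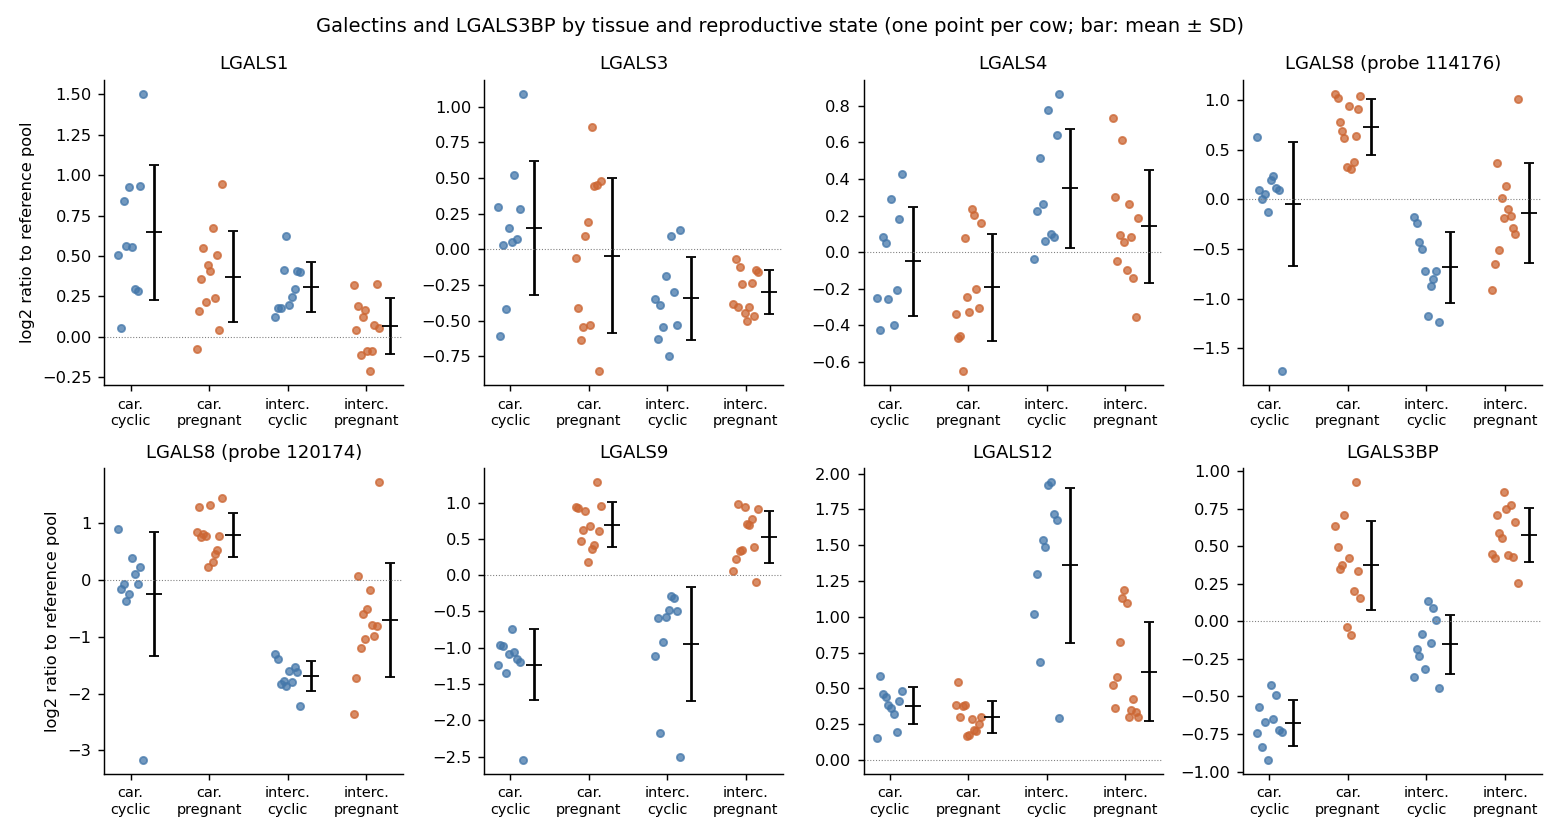
Log2 ratio to the reference pool of each member probe, with 1 point per cow and the mean ± SD beside each group of 10 cyclic (blue) or 12 pregnant (orange) cows. LGALS9 and LGALS3BP separate pregnant from cyclic cows in each tissue without overlap, and LGALS12 spreads more in intercaruncular than in caruncular tissue, from 0.29 to 1.94 against 0.15 to 0.58 in cyclic cows.

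LGALS9, whose product binds the T-cell receptor TIM-3 among other ligands, had the largest change of the 8 probes. In caruncular tissue its log2 ratio ran from -2.54 through a median of -1.12 to -0.75 in cyclic cows, and from 0.18 through 0.65 to 1.28 in pregnant cows. Every pregnant cow thus lay above every cyclic cow. The means were -1.23 ± 0.49 (SD, n = 10) and 0.69 ± 0.31 (SD, n = 12), a difference of 1.92 (SE 0.17, 95% interval 1.58 to 2.27), or 3.80-fold (adjusted p = 1.22e-08, limma).

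In intercaruncular tissue LGALS9 ran from -2.51 through -0.58 to -0.28 in cyclic cows and from -0.09 through 0.54 to 0.99 in pregnant cows. Here too every pregnant cow lay above every cyclic cow, with a narrower gap. The difference was 1.47 (SE 0.24, 95% interval 0.98 to 1.96), or 2.77-fold (adjusted p = 0.00018, limma). The lowest cyclic value in both tissues came from the cyclic cow of slide 11, followed in intercaruncular tissue by a cow of slide 3 at -2.17. Without the cyclic cow of slide 11 the LGALS9 difference was 1.78 in caruncular and 1.30 in intercaruncular tissue, and LGALS9 passed in both.

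Where the states shared a slide, LGALS9 stood at -1.24 in the cyclic cow and at 0.42 to 1.28 in the 3 pregnant cows of the caruncular slide, and at -1.11 and 0.35 to 0.94 on the intercaruncular slide. The differences within a slide, 2.01 and 1.78, were as large as those over all cows. When a fixed slide term was added to the limma fit, LGALS9 passed in caruncular tissue (adjusted p = 0.0097) but not in intercaruncular tissue (adjusted p = 0.11).

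LGALS3BP changed in the same direction as LGALS9, with narrower groups. In caruncular tissue it ran from -0.92 through -0.70 to -0.43 in cyclic cows and from -0.09 through 0.36 to 0.92 in pregnant cows. The difference was 1.05 (SE 0.10, 95% interval 0.84 to 1.26), or 2.07-fold (adjusted p = 1.17e-07, limma). In intercaruncular tissue it ran from -0.44 through -0.17 to 0.14 in cyclic and from 0.25 through 0.57 to 0.86 in pregnant cows. The groups again stood apart, by 0.73 (SE 0.08, 95% interval 0.55 to 0.90), or 1.66-fold (adjusted p = 1.97e-06, limma).

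On the slides that held both states LGALS3BP was 1.23 higher in the pregnant cows in caruncular and 1.09 higher in intercaruncular tissue, and all 3 pregnant cows of each slide lay above the cyclic cow. With a fixed slide term in limma the caruncular adjusted p was 0.089, and the intercaruncular change passed. For the repeated caruncular samples, arrays of the same RNA differed by at most 0.31 for LGALS3BP and by at most 0.06 for LGALS9. The largest such difference was 0.11 and 0.06 for the LGALS8 probes and 0.37 for LGALS12, the highest of the 8 probes.

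LGALS8 encodes a galectin that binds integrins and also marks damaged vesicles for autophagy. By the brighter probe, A_73_114176, caruncular values ran from -1.73 through 0.10 to 0.63 in cyclic cows and from 0.30 through 0.74 to 1.07 in pregnant cows. All 12 pregnant cows lay above the cyclic mean, and 8 of them above every cyclic cow. The difference was 0.77 (SE 0.19, 95% interval 0.37 to 1.17), or 1.71-fold (adjusted p = 0.0052, limma). The lowest cyclic cow was that of slide 11, and without it the change was 0.58 (adjusted p = 0.00057), which is just under the 1.5-fold threshold.

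In intercaruncular tissue the same probe ran from -1.24 through -0.72 to -0.17 in cyclic and from -0.91 through -0.18 to 1.02 in pregnant cows, and the groups overlapped. The difference of 0.55 (SE 0.18, 95% interval 0.18 to 0.93), or 1.47-fold, had an adjusted p of 0.034 (limma) but fell short of 1.5-fold. Within the shared slides the difference shrank to 0.01 in caruncular tissue and 0.16 in intercaruncular tissue, with 2 of 3 pregnant cows above the cyclic cow on each. A single cyclic cow per tissue carries this comparison. A fixed slide term in limma rests on the same cow and gave the same 0.01 and 0.16. The cause of the smaller difference was not tested.

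The dimmer LGALS8 probe, A_73_120174, gave 1.04 (SE 0.32, adjusted p = 0.019, limma) in caruncular and 0.99 (SE 0.31, adjusted p = 0.026, limma) in intercaruncular tissue. Without the cyclic cow of slide 11 the caruncular change was 0.72 and passed. The caruncular change passed in 11 of 14 alternatives, and the methods' t-test was among those in which it did not. Its caruncular values ran from -3.17 through -0.07 to 0.90 in cyclic and from 0.22 through 0.78 to 1.44 in pregnant cows. Its signal was well above background on 13 of 13 caruncular arrays of pregnant cows and 12 of 13 of cyclic cows, but on 8 of 12 intercaruncular arrays of pregnant and 2 of 10 of cyclic cows. Most intercaruncular values of cyclic cows by this probe are therefore readings not above background, and under normexp background correction its change there was 0.36 (adjusted p = 0.22).

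On the shared slides this probe gave -0.31 in caruncular tissue, where all 3 pregnant cows lay below the cyclic cow, and 0.58 in intercaruncular tissue, where all 3 lay above. After the mean of each tissue and state was removed, the LGALS8 probes followed each other across the 44 samples with a Pearson r of 0.92. The points share slides, and each cow gives 2 of them. The r includes the samples in which the dimmer probe was not above background.

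**Figure D2:**
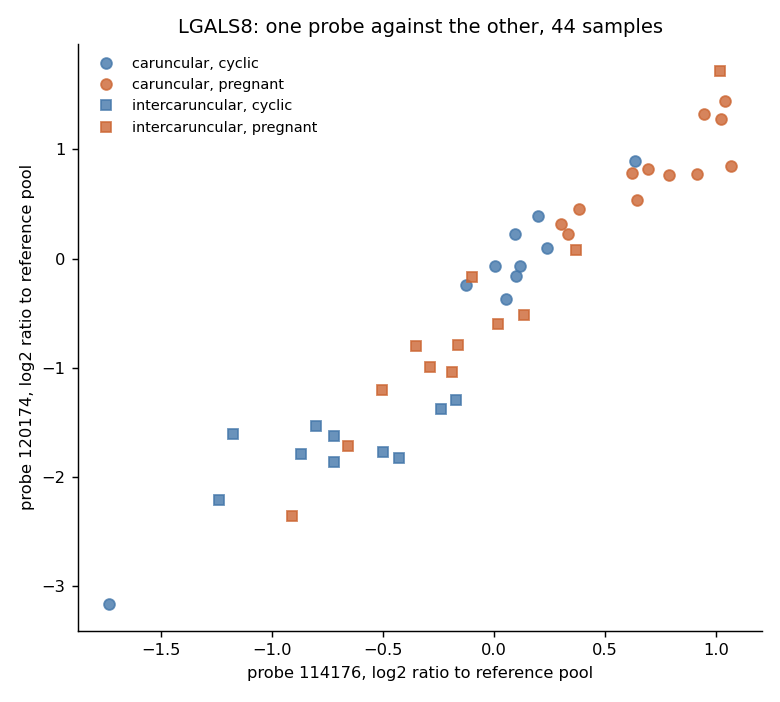
The 44 samples by the log2 ratio of LGALS8 probe A_73_114176 (x axis) and probe A_73_120174 (y axis), with circles for caruncular and squares for intercaruncular tissue, blue for cyclic and orange for pregnant cows. The caruncular sample of the cyclic cow of slide 11 lies lowest on both axes, at -1.73 and -3.17, and the low values on the y axis include samples not above background.

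LGALS12, a galectin known chiefly from fat cells and myeloid cells, was called lower in pregnant animals in intercaruncular tissue. Its values there ran from 0.29 through 1.51 to 1.94 in cyclic cows and from 0.30 through 0.47 to 1.19 in pregnant cows. All 12 pregnant cows lay below the cyclic mean, yet none lay below the lowest cyclic cow. The change was -0.74 (SE 0.18, 95% interval -1.12 to -0.36), a 1.67-fold lower level (adjusted p = 0.0065, limma). In caruncular tissue the difference was -0.08 (SE 0.06, adjusted p = 0.32, limma), with 9 of 12 pregnant cows below the cyclic mean and values from 0.15 to 0.58 in cyclic and 0.17 to 0.54 in pregnant cows.

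The LGALS12 values followed the slides, which held 51.9% of the variance left after group means were removed. This was not particular to LGALS12. The share was 59.9% for LGALS9 and 59.6% and 54.1% for the LGALS8 probes, beside a median of 36.1% over all probes. On the intercaruncular slide with both states the cyclic cow stood at 1.02 and the 3 pregnant cows at 1.10 to 1.19, so that the fall over all cows was not present within that slide, where the difference was 0.12. The 4 cyclic cows of slide 4 lay between 1.68 and 1.94, and the 4 pregnant cows of slide 12 between 0.30 and 0.43. A fixed slide term gave 0.12 (adjusted p = 0.92, limma) and a random slide term -0.55 (adjusted p = 0.11, limma).

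The reference pool moved at this probe as well, although every array received the same pool. Its Cy3 signal ran from 1519 to 5029 units on intercaruncular arrays of cyclic cows and from 416 to 2318 on those of pregnant cows, a range of 12.1-fold over all samples. For the other member probes the reference ranged over 1.94- to 3.44-fold. The SD of its log2 signal was 0.78, larger than at 98.7% of the tested probes, whose median was 0.26. The part of this in the LGALS12 result was not tested. The probe carries the name LGALS12 from the array's annotation alone, and its sequence was not at hand to check that it measures this gene, which limits every LGALS12 value given here. Sequences of the LGALS1, LGALS3 and LGALS4 probes were not at hand either. The sequences shown above were not placed on a transcript, so the names of all members rest on the array's annotation.

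**Figure D3:**
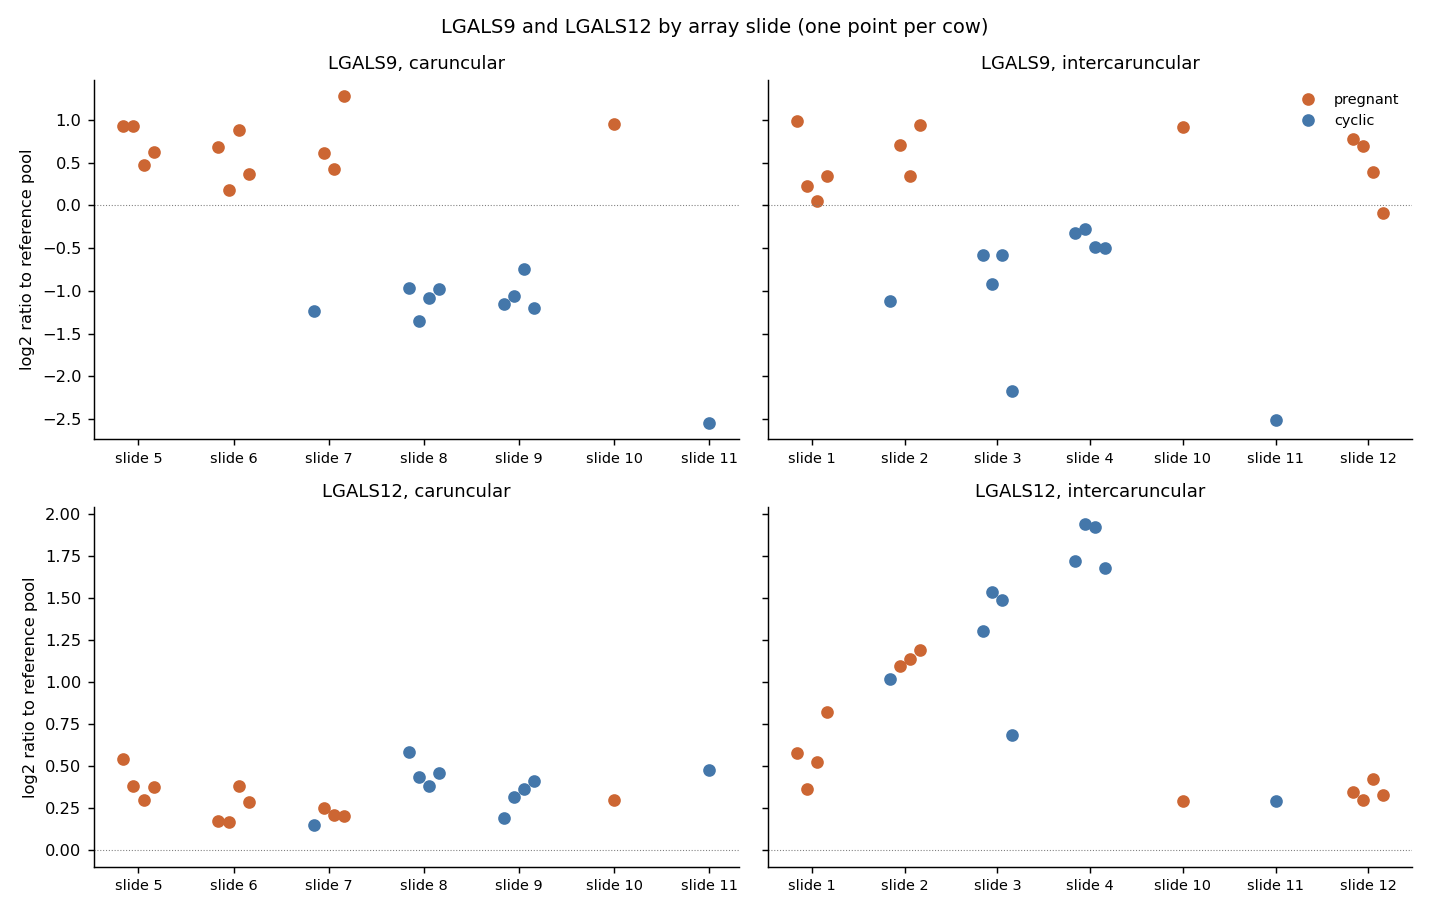
Log2 ratio to the reference pool of LGALS9 (upper row) and LGALS12 (lower row) by array slide, with 1 point per cow, orange for pregnant and blue for cyclic. On slides 7 and 2, which hold both states, LGALS9 differs by 2.01 and 1.78 while the LGALS12 points of slide 2 lie together between 1.02 and 1.19.

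The remaining galectins differed little between the states. LGALS1, the prototype galectin that induces tolerance and apoptosis of activated T cells, was -0.24 (SE 0.08, 95% interval -0.40 to -0.08) in intercaruncular tissue with an adjusted p of 0.028 (limma), but this is 1.18-fold and so below the threshold. Its intercaruncular range was 0.12 to 0.62 in cyclic and -0.21 to 0.33 in pregnant cows, and 8 of 12 pregnant cows lay under every cyclic cow. In caruncular tissue the LGALS1 difference was -0.27 (SE 0.14, adjusted p = 0.17, limma). Its spot was saturated on 3 of the 13 caruncular arrays of cyclic cows, so the ratios of those arrays are lower limits.

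LGALS3, the chimera-type galectin, differed by -0.19 (95% interval -0.63 to 0.24) in caruncular and by 0.05 (95% interval -0.16 to 0.25) in intercaruncular tissue. Its caruncular spread was wide, from -0.61 to 1.09 in cyclic and from -0.86 to 0.86 in pregnant cows. LGALS4, a galectin of epithelia that takes part in apical transport, differed by -0.14 (95% interval -0.40 to 0.11) and -0.21 (95% interval -0.48 to 0.06). Neither gene passed in either tissue.

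The size of the pregnancy change was then compared between the tissues by an interaction term. In limma none of the 8 member probes passed at an adjusted p under 0.05, where 0.0204% of all probes did, and 2 of the 8 had an unadjusted p under 0.05, beside 7.37% of all probes. These were LGALS12, whose change was 0.66 higher in caruncular tissue (SE 0.19, adjusted p = 0.27), and LGALS3BP, at 0.32 (SE 0.13, adjusted p = 0.54). For LGALS9 the difference of 0.46 had a 95% interval of -0.14 to 1.05.

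Since each cow gave both tissues, the interaction was refitted with a random term for the cow. In this paired fit LGALS12 passed (adjusted p = 0.024, limma) and LGALS3BP did not (adjusted p = 0.052, limma). A fixed cow term let neither pass (adjusted p = 0.094 and 0.089, limma). Without the cyclic cow of slide 11 LGALS12 passed at 0.79 (adjusted p = 0.022, limma), in a fit whose calls over all probes rose from 3 to 105, and a fixed slide term turned its difference to -0.10.

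The tissues were next compared within each state, in limma fits without a term for the cow. Their SE, intervals and adjusted p values therefore leave the pairing of the tissues out. With the cow as a block no member call between the tissues changed. In cyclic cows 3 of the 8 probes passed at 1.5-fold, the pair for LGALS8 as higher and LGALS12 as lower in caruncular tissue, beside 11.9% of all probes. In pregnant cows 2 of the 8, again the LGALS8 pair, passed as higher in caruncular tissue, beside 17.0% of all probes. Probe A_73_120174 of this pair was present in 26 samples and met the filter largely through caruncular ones. Its tissue calls are thus not independent of the filter and add no support to those of the brighter probe.

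By probe A_73_114176, LGALS8 was 0.64 (SE 0.22, adjusted p = 0.027, limma) higher in caruncular tissue of cyclic cows and 0.86 (SE 0.16, adjusted p = 0.00012, limma) higher in that of pregnant cows. The caruncular sample was the higher one in 9 of 10 cyclic and 12 of 12 pregnant cows. Probe A_73_120174 passed in the same direction (adjusted p = 0.0025 in cyclic and 0.00023 in pregnant cows, limma), but its intercaruncular signal was well above background on only 2 of 10 and 8 of 12 arrays, so no fold is given for it. By the brighter probe the mean of LGALS8 was highest in caruncular pregnant and lowest in intercaruncular cyclic samples, with caruncular cyclic and intercaruncular pregnant samples between them at -0.04 and -0.14 and with overlapping ranges.

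The 2 cows with both tissues on 1 slide did not show this difference. The LGALS8 sample of caruncular tissue lay 0.50 (A_73_114176) and 0.95 (A_73_120174) below the intercaruncular one in the cyclic cow, and 0.02 above and 0.28 below it in the pregnant cow. All other cows had their tissues on separate slides, so for them tissue and slide cannot be told apart.

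LGALS12 was 0.98 (SE 0.17, adjusted p = 0.00028, limma) lower in caruncular than in intercaruncular tissue of cyclic cows, and 0.32 lower (adjusted p = 0.014, limma) in pregnant cows, which is under 1.5-fold. In the cyclic and pregnant cows of slides 11 and 10 caruncular tissue was the higher, by 0.18 and 0.01.

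For LGALS3BP the caruncular level was 0.52 (SE 0.08, adjusted p = 0.00014, limma) lower in cyclic cows, in 10 of 10 animals, and 0.20 lower (adjusted p = 0.097, limma) in pregnant cows, in 9 of 12. This is 1.44-fold in cyclic cows and so was not called. The order of its group means, caruncular cyclic (-0.68), intercaruncular cyclic (-0.15), caruncular pregnant (0.37) and intercaruncular pregnant (0.57), kept both pregnant groups above both cyclic groups.

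LGALS9 did not pass between the tissues, at -0.29 (95% interval -0.86 to 0.29) in cyclic and 0.17 (95% interval -0.11 to 0.44) in pregnant cows. It was lower in caruncular tissue in 9 of 10 cyclic cows, with a median difference of -0.40, and higher there in 9 of 12 pregnant cows. Without the cyclic cow of slide 3 that was low for LGALS9 the cyclic difference was -0.45 (adjusted p = 0.21, limma). LGALS4 was lower in caruncular tissue in 10 of 10 cyclic and 11 of 12 pregnant cows, by 0.40 and 0.33 (adjusted p = 0.028 and 0.024, limma). LGALS3 was higher in caruncular tissue in 10 of 10 cyclic and 7 of 12 pregnant cows, by 0.49 (adjusted p = 0.029, limma) and 0.25 (adjusted p = 0.19, limma). LGALS1 was higher there in 8 of 10 and 11 of 12 cows, by 0.34 and 0.31. None of these reached 1.5-fold. In the cows of slides 10 and 11 LGALS1 and LGALS3 were also higher in caruncular tissue, by 0.63 to 1.10.

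**Figure D4:**
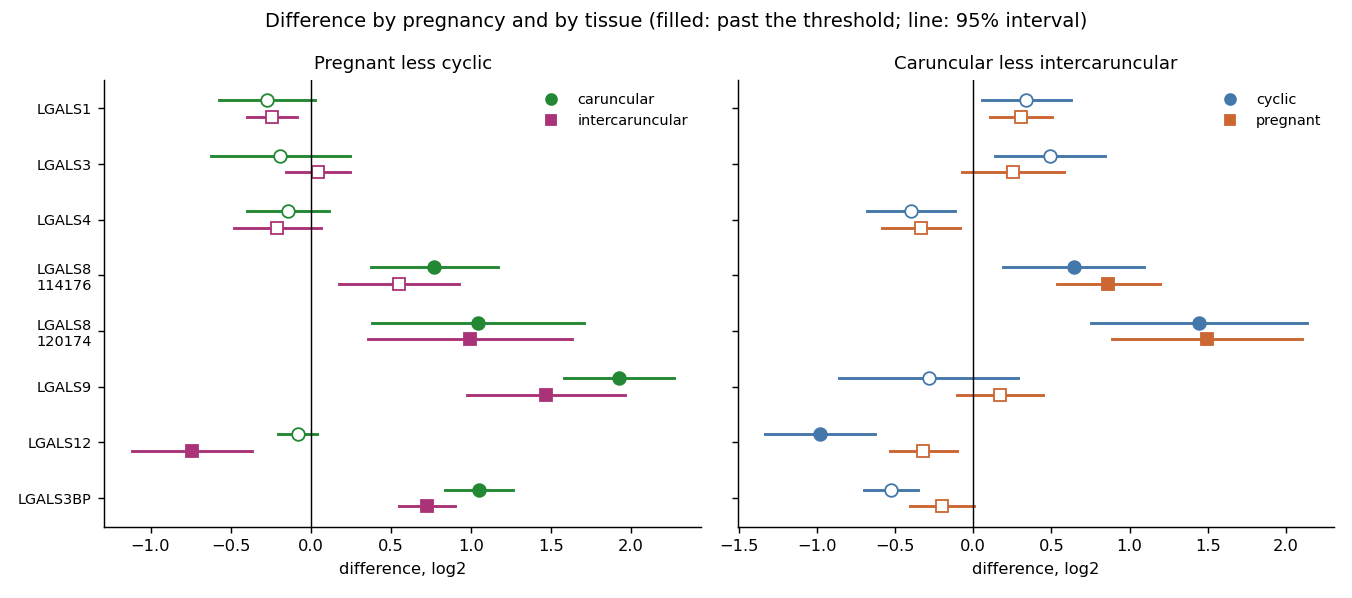
Difference of log2 ratio of each member probe between pregnant and cyclic cows in each tissue (left) and between the tissues in each state (right), with its 95% interval, filled where it passed 1.5-fold and the adjusted p. LGALS9, LGALS3BP and LGALS8 lie to the right in the left panel, LGALS12 passed as lower in intercaruncular tissue, and the LGALS8 probes lie to the right in the right panel.

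Among the pregnant cows, large and small embryos were compared at an adjusted p under 0.05. In caruncular tissue 0 of the 8 member probes passed in limma, as did 0% of all probes, with 3 of the 8 at an unadjusted p under 0.05, beside 6.93% of all probes, and 2 by the methods' t-test. In intercaruncular tissue 0 of the 8 passed, beside 3.70% of all probes, with 1 of the 8 at an unadjusted p under 0.05 by limma, beside 21.5% of all probes, and 1 by the methods' t-test. At the unadjusted p the limma share of members was above that of all probes in caruncular and below it in intercaruncular tissue. With 8 probes nothing is read from these shares.

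The probe was that of LGALS4, with intercaruncular values of 0.09, 0.26, 0.30, 0.61 and 0.73 in the 5 cows with a small embryo and of -0.36 through -0.05 to 0.19 in the 7 with a large one. Of the latter, 6 lay below every cow with a small embryo. The difference was -0.45 (SE 0.13, 95% interval -0.72 to -0.17, adjusted p = 0.070, limma). Without the pregnant cow of slide 10 it was -0.48 (adjusted p = 0.028, limma) and passed, while calls over all probes rose from 545 to 1878. In caruncular tissue LGALS4 differed by -0.31 (95% interval -0.63 to 0.01).

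LGALS3 in caruncular tissue stood at -0.06, 0.09, 0.19, 0.44 and 0.86 with a small embryo and ran from -0.86 through -0.53 to 0.48 with a large one. Of 7 cows with a large embryo, 5 lay below all 5 others. The difference was -0.60 (SE 0.25, adjusted p = 0.70, limma). By probe A_73_114176 LGALS8 differed by 0.32 (adjusted p = 0.70, limma) in caruncular and by 0.51 (adjusted p = 0.24, limma) in intercaruncular tissue, and by probe A_73_120174 by 0.47 (adjusted p = 0.68, limma) and 0.88 (adjusted p = 0.33, limma). For LGALS9 the difference was 0.23 (95% interval -0.13 to 0.60) and 0.33 (95% interval -0.07 to 0.72). For LGALS3BP it was 0.15 and 0.14, with intervals from -0.21 to 0.51 and from -0.09 to 0.37.

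Fertile and sub-fertile pregnant cows were compared in the same way. In caruncular tissue 0 of the 8 passed in limma, beside 0% of all probes, and none had an unadjusted p under 0.05 by limma, beside 13.8% of all probes, or by the methods' t-test. In intercaruncular tissue 0 of the 8 passed, beside 0.0476% of all probes, with 2 of the 8 at an unadjusted p under 0.05 by limma, beside 13.6% of all probes, and 1 by the methods' t-test. The 2 were LGALS12 and the LGALS8 probe A_73_114176.

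LGALS12 ran from 0.30 through 0.36 to 0.52 in the 6 fertile cows and from 0.30 through 0.96 to 1.19 in the 6 sub-fertile cows. The difference was -0.47 (SE 0.15, adjusted p = 0.21, limma). The 4 cows of slide 12 were all fertile and the 3 pregnant cows of slide 2 all sub-fertile, and a fixed slide term gave -0.26 (adjusted p = 0.59, limma). LGALS8 by probe A_73_114176 ran from -0.91 through -0.32 to -0.10 in fertile and from -0.51 through 0.07 to 1.02 in sub-fertile cows, a difference of -0.55 (SE 0.23, adjusted p = 0.33, limma). For LGALS9 it was -0.36 (95% interval -0.74 to 0.02) in intercaruncular and -0.05 (95% interval -0.43 to 0.33) in caruncular tissue.

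**Figure D5:**
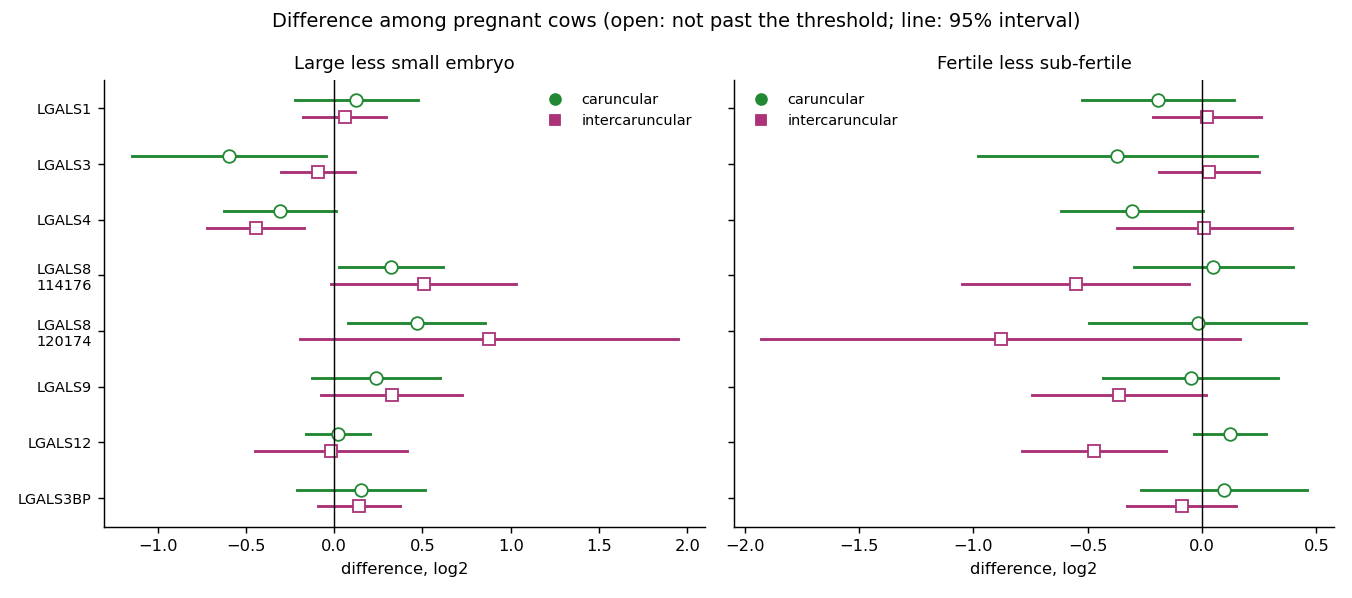
Difference of log2 ratio of each member probe between cows with large (n = 7) and small (n = 5) embryos (left) and between fertile (n = 6) and sub-fertile (n = 6) pregnant cows (right), with its 95% interval. No member passed the threshold in any of the 4 comparisons, and the widest interval was that of the dimmer LGALS8 probe in intercaruncular tissue.

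Genes that work with galectins were then counted from fixed lists, each by its brightest tested probe. Beside these counts, 5.78% of all probes rose and 4.23% fell in caruncular tissue, and 4.01% rose and 3.27% fell in intercaruncular tissue. The genes named are those with the largest changes in each list, so they do not stand for the list. Of 30 counter-receptor genes, 21 were tested, and in caruncular tissue 3 rose and 1 fell while in intercaruncular tissue 2 rose and 1 fell, with medians of 0.07 and 0.14. LAG3, an inhibitory receptor of T cells, rose by 1.32 and 0.91. CD40, a receptor of antigen-presenting cells, rose by 1.00 and 0.68. ITGB3, an integrin subunit, rose by 0.71 in caruncular tissue and stood at 0.46, short of the threshold, in intercaruncular tissue, and NRP1, a co-receptor for vascular endothelial growth factor, fell by 0.61 in caruncular and by 0.74 in intercaruncular tissue.

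Of 26 matrix and mucin ligands, 21 were tested, and 1 rose and 0 fell in caruncular tissue (median -0.08) while 0 rose and 2 fell in intercaruncular tissue (median -0.18). CEACAM1, a cell adhesion molecule, rose by 0.60 in caruncular tissue. In intercaruncular tissue LAMA4, a laminin chain of vessel walls, fell by 0.67 and the elastin gene ELN fell by 0.65.

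Of 38 glycan enzymes, which build or cap the sugars that galectins read, 26 were tested, and 2 rose and 2 fell in caruncular tissue (median 0.14) while 1 rose and 1 fell in intercaruncular tissue (median 0.10). MGAT4A, which adds a branch to N-glycans, rose by 1.83 and 1.75. ST6GAL1, whose alpha-2,6 sialic acid caps galactose and hinders the binding of several galectins, fell by 0.71 in caruncular and by 0.65 in intercaruncular tissue, with 12 of 12 pregnant cows below the cyclic mean in each. In caruncular tissue FUT10, a fucosyltransferase gene, rose by 0.83 and FUT1, a fucosyltransferase that caps terminal galactose, fell by 0.81. LGALS2 had a probe on the array that did not pass the filter, and the remaining names of the list of other galectins were not matched to a probe.

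Interferon-stimulated genes, the known response of ruminant endometrium to the interferon tau of the conceptus, rose in all 7 tested of 10 listed in each tissue, with median changes of 3.28 and 2.50. RSAD2, IFIT3, MX2 and MX1 had the largest caruncular changes, of 5.46, 4.57, 4.90 and 3.28. After group means were removed, the mean of the 7 had a Pearson r of 0.38 with LGALS9, 0.47 with LGALS3BP and 0.46 and 0.47 with the LGALS8 probes. It was -0.48 with LGALS4, -0.37 with LGALS3, -0.26 with LGALS1 and -0.04 with LGALS12. These values are across the 44 samples, which share slides and cows.

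Cell type markers were counted beside these results. Of 7 macrophage and monocyte markers 3 rose in each tissue (CSF1R, AIF1 and MSR1), and the mean over the 7 ran from -1.13 to -0.03 in cyclic and from -0.46 to 0.70 in pregnant cows in caruncular tissue, and from -0.98 to -0.13 and from -0.58 to 0.55 in intercaruncular tissue. Of 5 smooth muscle markers 4 fell in each tissue, with means from -0.39 to 1.16 in cyclic and from -1.56 to 0.41 in pregnant cows in caruncular tissue and from -1.24 to 0.90 and from -1.73 to 0.00 in intercaruncular tissue. Of 6 stromal markers 1 fell in caruncular tissue and 3 fell in intercaruncular tissue. Of 5 endothelial markers 2 fell in each.

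The 5 T lymphocyte markers had median changes of 0.18 and 0.20 without a call, and of 3 natural killer cell markers 1 rose in caruncular tissue. Of 4 epithelial markers 1 rose in each tissue and 1 fell in caruncular tissue, and of 2 gland markers 1 rose in each. The 1 tested conceptus marker and the 1 tested eosinophil marker did not pass, and the 4 adipocyte markers on the array did not pass the filter on dim signals. The part of cell make-up in the galectin changes was not tested.

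For each gene's brightest probe, the genes with the most similar values after removal of group means were found among up to 11280 named probes. For LGALS9 they were TAPBP (r = 0.91), SPG7 (r = 0.89) and DUSP15 (r = 0.88), for LGALS3BP BPNT1 (r = 0.72), SASS6 (r = 0.72) and TRIM21 (r = 0.71), and for LGALS8 SLC37A3 (r = 0.86), NOL9 (r = 0.85) and METTL3 (r = 0.85). For LGALS12 they were TMEM147 (r = 0.94), CSNK1G1 (r = 0.93) and CKAP5 (r = 0.92). LGALS4 was closest to KIAA1586 (r = 0.84), ZNF532 (r = 0.84) and CNTNAP1 (r = 0.83), LGALS1 to SNX26 (r = 0.79), GRIN2D (r = 0.75) and SLC4A3 (r = 0.74), and LGALS3 to IGSF4 (r = 0.72), PLCL1 (r = 0.71) and PLA2R1 (r = 0.69). These are descriptions over 44 samples that share slides, cows and the reference pool, and slides held 51.9% of the remaining variance of LGALS12, 59.6% of LGALS8, 59.9% of LGALS9 and 28.4% of LGALS3BP, beside a median of 36.1% over all probes.

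Among the members, the highest correlations between different genes were those of LGALS9 with LGALS12 (r = 0.59), of LGALS9 with the LGALS8 probes (r = 0.50 and 0.55), of LGALS1 with LGALS3 (r = 0.50) and of LGALS9 with LGALS3BP (r = 0.48). The lowest were those of LGALS8 probe A_73_114176 with LGALS1 (r = -0.47), LGALS4 (r = -0.43) and LGALS3 (r = -0.40).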

How the data were processed

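Endometrial RNA of 44 samples was hybridized to 48 2-colour Agilent arrays. Caruncular RNA of 3 cyclic cows and 1 pregnant cow was hybridized again, and arrays of the same sample were averaged. Per the file headers, the authors extracted spot intensity values with Agilent Feature Extraction 9.5.3.1, subtracted background, normalized dyes by LOWESS and gave the log10 ratio of Cy5 to Cy3 signal. The authors' deposited matrix holds log2 ratios of the same arrays, with r of at least 0.989 to the scanner values, and was used as an alternative. No dye was swapped, so a dye effect of a probe is common to all samples and was not estimated.

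Log10 ratios were taken to log2, spots flagged as outliers were dropped, the 2 spots of a member probe were averaged and array medians were subtracted. Probes were tested if 22 or more of the 44 samples had a Cy5 signal of 80 units or more that the scanner software marked as well above background. The number of arrays limits the precision. Groups were compared with limma 3.58.1 in R 4.3.3, within the samples compared, with Benjamini-Hochberg adjustment over all tested probes. Pregnancy and tissue were called at 1.5-fold and an adjusted p under 0.05, the other comparisons by the adjusted p alone. The cow pairs the tissues, and the paired fits stand beside the interaction. Fits were tested on simulated data. Figures were drawn with Python 3.11.15 and matplotlib 3.10.9.

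All members and their probes are named. From each list of partner genes, up to 4 genes past the threshold in either tissue with the largest change are named, and for each member the 3 symbols with the highest Pearson r after removal of group means. The FOXA2 and macrophage markers were named after their values were seen. Members, lists and rules were chosen with earlier results of these data known. Alternatives covered background correction, centring, the filter, the t-test that the methods name, run here in its Welch form for unequal variances, the deposited matrix, repeated arrays, pooled samples, slide, scan date and cow as blocks, covariates and cows left out. Leaving out the cows of slides 10 and 11 and a cyclic cow low for LGALS9 was chosen after the data were seen. Probe sequences were taken from the study's own list of differentially expressed genes, which gave 4 of the 8. Which sequences were at hand was thus set by the study's calls. Names on the array were kept, and no coordinates are given, since no genome was used.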

Additional observations from a re-analysis of the deposited data

Results flagged for a closer look

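In groups of 4 to 10 cows, 4 of 80 combinations of probe and group held a cow set far from the rest by Dixon's test, and chance alone is expected to mark about 1 in 20 groups. The cyclic cow of slide 11 gave 3 of them, all as the lowest cyclic caruncular sample. Its LGALS8 value was -1.73 by probe A_73_114176, with the nearest cow at -0.13, and -3.17 by probe A_73_120174, with the nearest at -0.37. By the latter probe it was the dimmest of the 44 samples. Its LGALS9 value was -2.54, with the nearest at -1.35. The other was the pregnant cow of slide 10, the highest for LGALS8 probe A_73_120174 in intercaruncular tissue of cows with a large embryo, at 1.72 with the nearest at 0.08. These were the cows whose tissues shared a slide.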

How the results depend on the processing

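Over all alternatives to the 9 comparisons, 1175 of 1207 values of single probes kept their direction and side of the threshold, 15 lost a call, 4 gained one and 13 turned direction. A change of sign was counted only where either value had an unadjusted p under 0.05. Omitting the centring moved no value. LGALS9 in caruncular and LGALS3BP in intercaruncular tissue passed under every alternative run, with changes from 1.78 to 2.01 and from 0.70 to 1.09.

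With the slide as a fixed block, which leaves 1 cyclic cow per tissue to compare, 1 member probe passed in each tissue for pregnancy, and 0 passed between tissues in either state. The slide as a random block left 2 in intercaruncular tissue for pregnancy and 1 between tissues in cyclic cows. The scan date as a fixed block left 0 between tissues in either state and gave 1 for embryo size in intercaruncular tissue. The stricter filter, which drops probe A_73_120174, left 1 between tissues in pregnant cows. A random replicate block for the cow gave 1 in the interaction, and leaving out the cyclic cow of slide 11 gave 1 (0 to 1 over the 3 cows left out). Leaving out 1 pregnant cow at a time gave 0 to 1 for embryo size in intercaruncular tissue and 0 in caruncular tissue. No other call changed with the cow as a block.

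With the slide fixed, LGALS8 probe A_73_120174 turned to -0.31 and LGALS12 to 0.12 for pregnancy in caruncular and intercaruncular tissue, and LGALS12 to -0.10 in the interaction. Between tissues, in cyclic cows, the slide or the scan date as a fixed block gave -0.50 and -0.95 for the LGALS8 probes and 0.18 for LGALS12, and in pregnant cows -0.28 for probe A_73_120174 and 0.0056 for LGALS12, which are the values of the cows of slides 11 and 10. The cause was not tested.

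Over all probes, the slide as a fixed block called 58 against 1473 in caruncular and 128 against 1071 in intercaruncular tissue for pregnancy, and as a random block 656 in the latter. Between tissues in cyclic cows 851 passed with a random slide block against 1752. In the interaction 426 passed with the cow as a random block against 3, 105 without the cyclic cow of slide 11 and 152 with the cow as a fixed block. For embryo size in intercaruncular tissue 1878 passed with the scan date as a block against 545, while leaving out 1 cow at a time gave 34 to 1878. The upper count came without the pregnant cow of slide 10 and equals that with the scan date, so these are not separate results. Between tissues, 0 passed in either state with a fixed slide or scan date block, against 2499 in pregnant cows. Leaving out 1 of the cows of slides 10 and 11 or the cyclic cow low for LGALS9 left 3 to 4 member probes for pregnancy in caruncular and 4 in intercaruncular tissue, beside 1418 to 1598 and 1047 to 1165 of all probes. The methods' t-test was not run for the interaction, which it does not cover.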
